A study of Arabidopsis thaliana with 8 samples.

Results

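Of the genes encoded on the plastid genome of Arabidopsis thaliana, 33 outside the photosynthetic electron transport chain were followed through a prolonged heat stress and the recovery from it. They were chosen as the probe sets that the gene table assigns to 1 plastid gene whose symbol does not begin with psa, psb, pet or ndh, and each gene had 1 such probe set. The 33 probe sets stand among 22746 tested in all, and another 36 plastid genes on the array encode electron transport proteins. Another 6 genes with symbols of this kind (rpl2, rpl23, rps7, rps12, ycf1 and ycf2) had only probe sets listed for more than 1 gene entry, and they were not analysed here.

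RNA came from whole seedlings raised in vitro at 22 °C in long days for 3 weeks. Heat-stressed plants spent 30 h at 37 °C and were taken either directly afterwards (no recovery) or 2 days after their return to 22 °C (recovery), while mock plants of both time points stayed at 22 °C. Each of the 4 groups had 2 biological replicates on 1 array each, and the labels name no mutant, transgene or strain. The median log2 value of an array was between 5.04 and 5.11. Of the tissue markers with a probe set, the shoot genes LHCB4.2, PSAE-1 and PSBY and the root gene PYK10 gave signal on all 8 arrays. EXPA7 and EXPA18, expressed in root hair cells, lay at the floor of the signal on all 8.

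Plastids keep a small genome of cyanobacterial origin that encodes the core of an RNA polymerase of bacterial type, part of the plastid ribosome, part of the ATP synthase and of the electron transport chain, and a few enzymes. The remaining subunits come from the nucleus, as do the sigma factors that direct the plastid polymerase to its promoters and a phage-type polymerase that transcribes a second class of plastid promoters. Most plastid genes lie in operons, and their long primary transcripts are cut, spliced and edited before translation, so that RNA levels of neighbours can differ.

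The first comparison set heat against mock plants without recovery. By limma, with p adjusted over all 22746 probe sets and a threshold of 0.05, 11 of the 33 genes fell and 1 rose, a called share of 36.4% against 41.0% of all probe sets. The share called is not above the background. It was 54.8% of the 31 brighter plastid genes against 70.4% of the brighter probe sets (those that reached a log2 value of 4 on 2 or more arrays). With only the 4 arrays compared it was 9.09% against 31.1%. The gap was narrower in other fits, with 42.4% against 43.0% centred on the nuclear median and 33.3% against 36.4% with values under log2 4 set to 4. By direction, 33.3% of the genes fell, against 19.8% of all probe sets, and 3.03% rose, against 21.2%. On each array 30.8% to 31.8% of all probe sets lay at the floor of the signal, with little room to fall. The shares over all probe sets here and below include them. Among the brighter sets 15 of the 31 genes fell and 2 rose, against 4878 and 4871 of 13849 probe sets. At an unadjusted p under 0.05 there were 15 of the 33 genes, against 46.6% of all probe sets. The median log2 difference, heat minus mock, was -0.38 for the 33 genes and 0.00 for all probe sets tested. Both heat arrays lay below both mock arrays for 20 genes (60.6%, against 29.5% of all probe sets) and above them for 4 (12.1%, against 30.2%). A change in plastid number or in the make-up of the seedlings and a change in RNA per plastid cannot be told apart in such bulk samples.

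Of the 11 genes that fell, cemA and atpI had the largest differences, with 35.5% and 35.6% of the mock level left, and atpE the smallest, with 79.8% left. The genes differed in precision from most others on the array: the median standard error (SE) of their log2 difference was 0.21, against 0.15 for the 13849 brighter probe sets. The shoot markers fell with them, by 3.64 (LHCB4.2), 1.68 (PSAE-1) and 1.76 (PSBY), and so did the root marker PYK10, by 2.71, and their part in the results was not tested.

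These differences are relative to the other probe sets of an array, and the scale between arrays decides much of their direction. Bacterial and phage hybridization control probe sets, whose targets are added to a sample before hybridization, had a median log2 value of 8.09 and 8.20 in heat, against 8.69 and 8.58 in mock. They were lower in heat for 16 of 18 probe sets, with a median difference of -0.37, which is about that of the 33 plastid genes. The arrays were then scaled on the median of these controls on each array, a setting chosen after seeing the data. Every difference without recovery was 0.49 higher, and the median of all probe sets stood at 0.49. Under that scaling 4 plastid genes were called lower (accD, atpI, cemA and ycf4) and 5 higher (atpH, matK, rpl22, rpoC1 and rps16), against 12.3% of all probe sets lower and 32.3% higher. The median of the 33 genes was then 0.12, above 0, but again 0.38 below the median of all probe sets, with 24 of 33 genes below it. A shift by 0.37, the median difference of the single controls, was not run and would leave the median of the 33 genes below 0. The falls of accD, atpI and cemA and the rise of rps16 were thus called on both scales, although accD lost its call with the replicate number as a block (adjusted p = 0.0635). The other 8 falls were called on the deposited scale only, and atpE changed sign, to 0.17 (adjusted p = 0.568). The control for cytosolic 25S ribosomal RNA read higher, at 13.41 and 13.56 in heat against 11.73 and 11.43 in mock. The 3 prime probe set of the GAPDH control read above its 5 prime probe set, by a mean of 2.95 in heat and 3.19 in mock. The part of the 25S and GAPDH readings in the results was not tested. All values below are on the deposited scale unless the scaling on the controls is named.

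**Figure D1:**
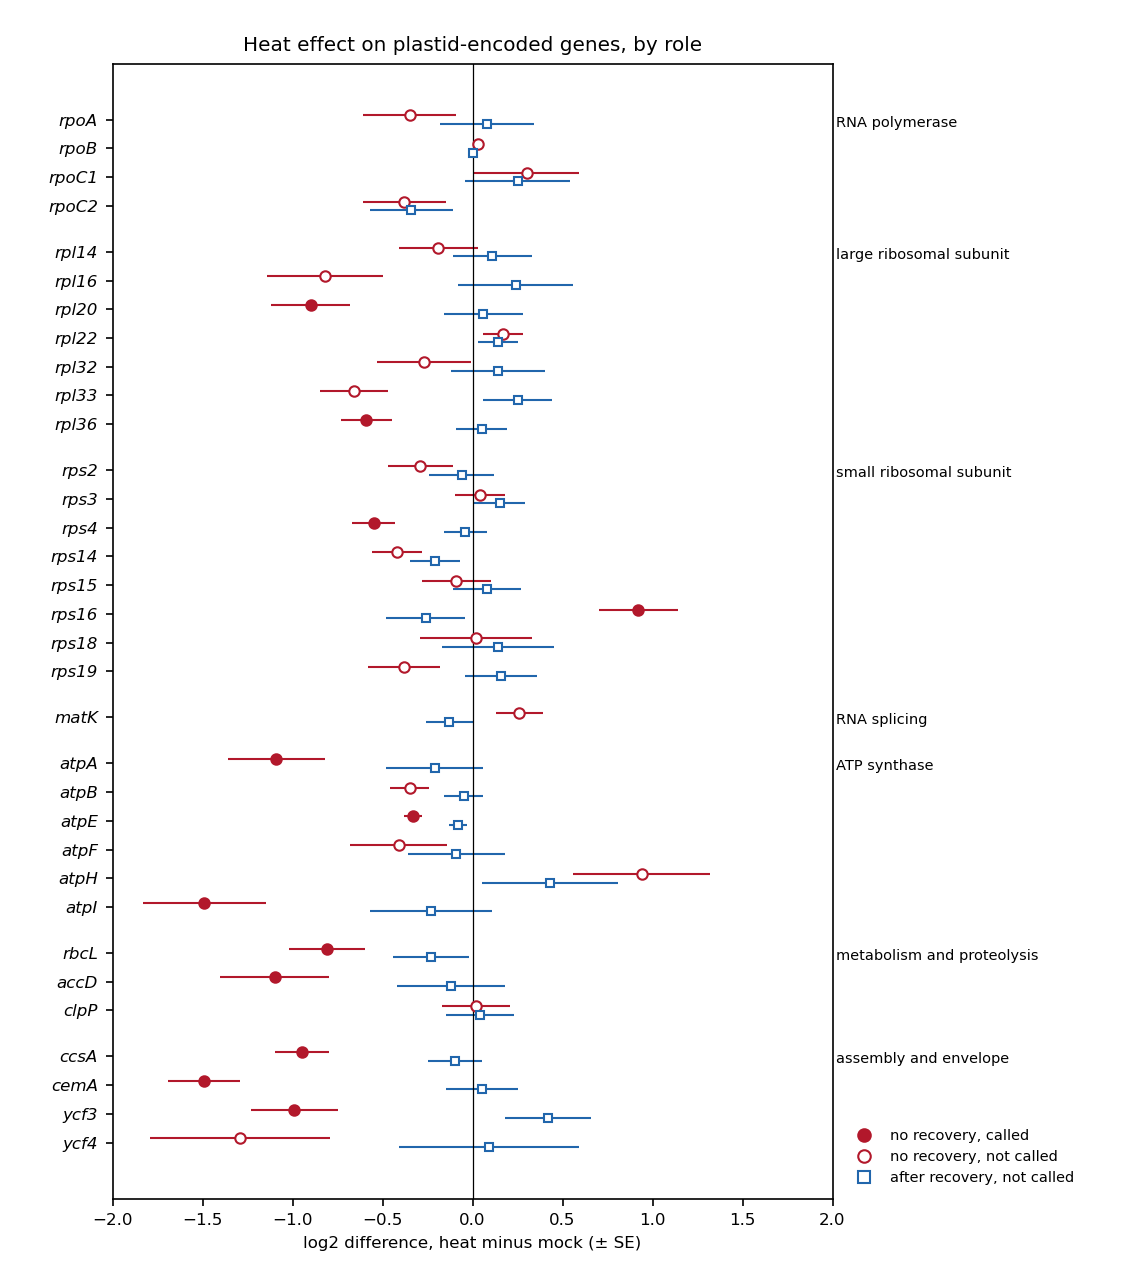
Log2 difference, heat minus mock, with its standard error for each of the 33 plastid genes (rows, grouped by role), without recovery (circles) and after recovery (squares), from 2 arrays per group. Filled symbols passed the adjusted p threshold of 0.05: on the deposited scale 11 genes fell and rps16 rose without recovery, and no square is filled. Scaling on the array medians of the hybridization controls moves every circle 0.49 to the right, which takes atpE and the median of the 33 genes above 0.

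Transcripts of the plastid RNA polymerase core gave no call on the deposited scale, and the median of the 4 genes, -0.16, turned to 0.33 with the scaling on the controls, where rpoC1 was called higher (0.79, adjusted p = 0.0074) and rpoA and rpoC2 changed sign. rpoA, the subunit that dimerizes to start assembly, read 12.63 and 12.34 in heat, against 12.91 and 12.76 in mock, a log2 difference of -0.35 ± 0.26 (SE; adjusted p = 0.392). The 2 genes for the split beta' subunit pointed in different directions, rpoC1 with 0.30 ± 0.29 (adjusted p = 0.541) and rpoC2 with -0.38 ± 0.23 (adjusted p = 0.300). Both heat arrays lay below both mock arrays for rpoA and rpoC2, while the groups overlapped for rpoC1. rpoB, the beta subunit, stayed between 2.21 and 2.27 on all 8 arrays, at the floor of the signal (below log2 2.3), so its change could not be measured.

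Among 7 proteins of the large ribosomal subunit, 2 transcripts fell (28.6%, against 19.8% of all probe sets). The median log2 difference of the 7 was -0.59 (-0.10 with the scaling on the controls, where neither fall was called). rpl20 read 5.21 and 4.95 in heat, against 6.10 and 5.85 in mock, and fell by 0.90 (SE 0.22, adjusted p = 0.0323). rpl36, one of the smallest ribosomal proteins, read 11.75 and 11.55 in heat, against 12.39 and 12.10 in mock, and fell by 0.59 (SE 0.14, adjusted p = 0.0268). The groups did not overlap for either gene, and the heat arrays were also the lower ones for rpl33, rpl16 and rpl32. Their differences, -0.66 ± 0.19 for rpl33 (adjusted p = 0.0541), -0.82 ± 0.32 for rpl16 (adjusted p = 0.124) and -0.27 ± 0.26 for rpl32 (adjusted p = 0.542), did not pass. rpl14 gave -0.19 ± 0.22 (adjusted p = 0.656), and rpl22 gave 0.17 ± 0.11 (adjusted p = 0.340).

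Among 8 genes named for proteins of the small ribosomal subunit, rps4 fell and rps16 rose (12.5% each, against 19.8% and 21.2% of all probe sets). The median over the 8, -0.19, turned to 0.30 with the scaling on the controls, where only the rise was called. rps4, a primary binder of the small-subunit ribosomal RNA, read 13.07 and 12.87 in heat, against 13.62 and 13.43 in mock, a fall by 0.55 (SE 0.12, adjusted p = 0.0215). rps16, whose transcript contains a group II intron, read 8.10 and 7.95 in heat, against 7.39 and 6.82 in mock, and rose by 0.92 ± 0.22 (adjusted p = 0.0297). It was the only one of the 33 genes called higher on the deposited scale, at 190% of the mock level, while atpH stood at 191% without a call. The arrays do not show whether its transcript is spliced or translated. rps19 and rps14 had both heat arrays below both mock arrays without a call, at -0.38 ± 0.20 (adjusted p = 0.243) and -0.42 ± 0.14 (adjusted p = 0.0851), and rps14 gave weak signal, between 2.41 and 3.29 on the 8 arrays. The groups overlapped for rps2 (-0.29 ± 0.18), rps15 (-0.09 ± 0.19), rps3 (0.04 ± 0.14) and rps18 (0.02 ± 0.31), with adjusted p from 0.313 to 1.000.

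matK encodes the plastid maturase, a splicing factor for group II introns, and lies next to rps16 on the genome. It read 12.32 and 12.34 in heat, against 12.21 and 11.92 in mock. The heat arrays were the higher ones, and the difference of 0.26 ± 0.13 was not called (adjusted p = 0.219).

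The ATP synthase makes ATP from the proton gradient across the thylakoid. Of its 6 plastid genes 3 fell (against 19.8% of all probe sets). The median of the 6 genes, -0.38, turned to 0.11 with the scaling on the controls. atpI, a membrane subunit, read 4.46 and 4.16 in heat, against 6.26 and 5.34 in mock, and fell by 1.49 (SE 0.34, adjusted p = 0.0252). atpA, the alpha subunit of the catalytic head, read 10.51 and 9.92 in heat, against 11.26 and 11.36 in mock, and fell by 1.09 (SE 0.27, adjusted p = 0.0328). atpE, the epsilon subunit, read 14.25 and 14.33 in heat, against 14.68 and 14.55 in mock, and fell by 0.33 (SE 0.05, adjusted p = 0.0086). The beta subunit gene atpB, in the same operon as atpE, had a similar difference with a wider error (-0.35 ± 0.11, adjusted p = 0.0718).

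The proton-conducting ring subunit gene atpH stood against the others of this complex. It read 10.60 and 10.45 in heat, against 9.60 and 9.59 in mock, a difference of 0.94 ± 0.38 (adjusted p = 0.130). The heat arrays were about 1 unit above mock without overlap, but the mock recovery arrays of atpH, at 10.44 and 9.35, were far apart and enter the spread shared by the 4 groups. Without mock recovery replicate 1 or 2 atpH was called higher (lowest adjusted p = 0.0087 over the 8 fits that leave out an array), and with only the 4 arrays compared its adjusted p was 0.0167. atpF, the stalk subunit, gave -0.41 ± 0.27 (adjusted p = 0.348).

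rbcL and accD, both for plastid enzymes of carbon metabolism, fell, of which accD alone was called with the scaling on the controls. rbcL, the large subunit of the CO2-fixing enzyme Rubisco, read 9.13 and 9.15 in heat, against 10.09 and 9.81 in mock, and fell by 0.81 (SE 0.21, adjusted p = 0.041) to 57.0% of the mock level. accD, a subunit of the acetyl-CoA carboxylase that starts fatty acid synthesis, read 7.78 and 7.63 in heat, against 9.18 and 8.43 in mock, and fell, with a difference of -1.10 ± 0.30 (adjusted p = 0.0435). By contrast clpP, a catalytic subunit of the stromal Clp protease, read 12.45 and 12.15 in heat, against 12.52 and 12.05 in mock. These clpP arrays overlapped, and the 95% confidence interval of the log2 difference was -0.49 to 0.53.

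Of 4 genes for assembly factors and an envelope protein, a group split off after the values were seen, 3 fell (against 19.8% of all probe sets), with a median of -1.14 (-0.65 with the scaling on the controls, where cemA and ycf4 were called). cemA, for a protein of the inner envelope, read 9.45 and 9.43 in heat, against 11.18 and 10.69 in mock, and fell by 1.49 (SE 0.20, adjusted p = 0.0047). ccsA, needed to attach haem to c-type cytochromes, read 11.75 and 11.72 in heat, against 12.90 and 12.48 in mock, and fell by 0.95 (SE 0.15, adjusted p = 0.0080). ycf3, a photosystem I assembly factor, read 6.95 and 6.50 in heat, against 7.85 and 7.57 in mock, and fell by 0.99 (SE 0.24, adjusted p = 0.0302). In all 3 genes the heat arrays lay below the mock arrays, as in ycf4, another photosystem I assembly factor. ycf4 read 6.24 and 6.41 in heat, against 8.18 and 7.05 in mock. The mock replicates of ycf4 were 1.13 apart, and its difference of -1.29 ± 0.50 was not called (adjusted p = 0.115).

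**Figure D2:**
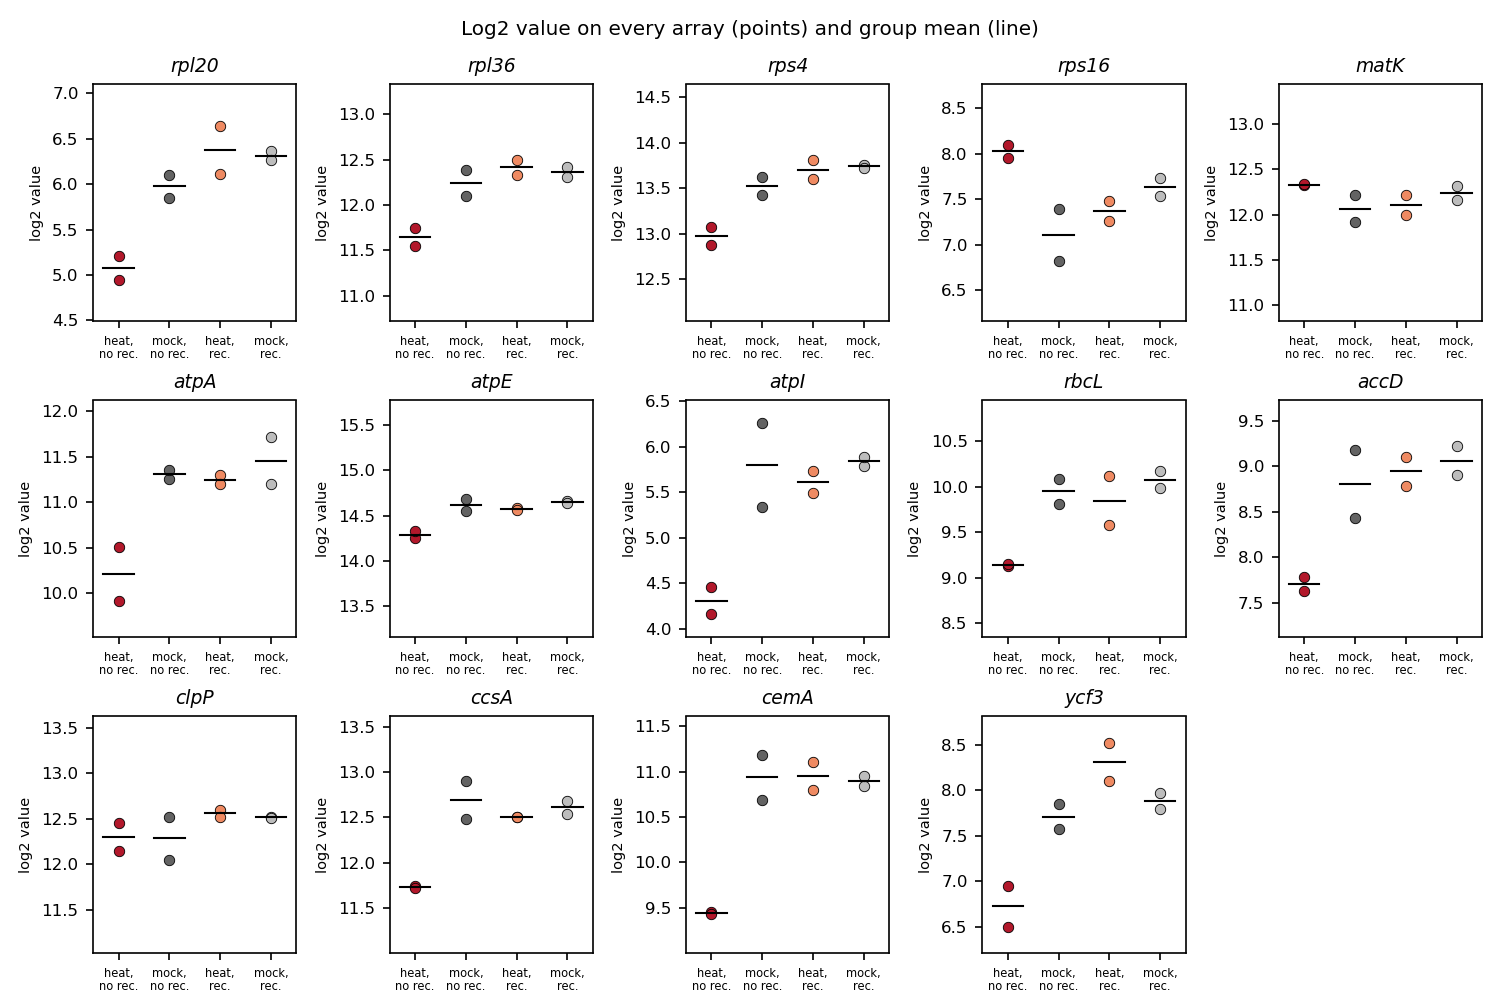
Log2 value on each of the 8 arrays (points, 2 per group) and group mean (line) for the 12 genes called without recovery and for matK and clpP, with an equal span of log2 units on every vertical axis. On this deposited scale the arrays of heat without recovery lie below the other groups in 11 genes and above them in rps16, and the recovered plants lie near the mock plants.

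With 2 arrays per group, most of these calls depended on single arrays. The falls of cemA, ccsA and atpE remained called when any 1 of the 8 arrays was left out, with highest adjusted p of 0.0291, 0.0443 and 0.0415. The call of cemA also held with only the 4 arrays compared (adjusted p = 0.0451), where those of ccsA (0.0718) and atpE (0.0778) ended. Leaving out any 1 array changed the number of genes called, and the median log2 difference of the 33 genes then ran from -0.45 to -0.26. In the other 9 called genes, 4 to 7 of the 8 arrays each ended the call when left out, and the highest adjusted p over these fits ran from 0.0928 for rps4 to 0.168 for rbcL. rps16 and accD were the least secure, since 7 arrays ended each call, but their log2 differences kept their sign (0.64 to 1.20 for rps16 and -1.47 to -0.72 for accD). Conversely, rpl16 and rpl33 were called lower without heat no-recovery replicate 1 (lowest adjusted p of 0.0368 and 0.0324) and rps14 without either heat recovery array (lowest adjusted p = 0.019).

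After 2 days of recovery none of the 33 genes differed between heat and mock plants at the threshold, against 0.237% of all probe sets (0.132% higher and 0.106% lower), and none had an unadjusted p under 0.05, against 12.7% of all probe sets. The count was also 0 under every alternative run, including limma over the brighter probe sets alone. The median log2 difference was 0.05, with single genes from -0.34 (rpoC2) to 0.43 (atpH). The groups did not overlap for 9 genes, 4 with the recovered plants higher (12.1%, against 16.9% of all probe sets) and 5 lower (15.2%, against 17.4%). The half-width of the 95% confidence interval had a median of 0.57 on the log2 scale and ran from 0.04 (rpoB, at the floor) to 1.33, so differences within these widths cannot be told from 0.

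Genes that had fallen without recovery read near their mock partners again. cemA read 11.10 and 10.80 in recovered plants, against 10.84 and 10.95 in mock plants of that day, with a 95% confidence interval of the difference from -0.47 to 0.58. This interval does not meet that of the fall without recovery, -2.02 to -0.97. ccsA read 12.51 on both recovery arrays, against 12.68 and 12.54 in mock. atpI read 5.73 and 5.49, against 5.79 and 5.89 in mock, and accD 9.10 and 8.79, against 8.91 and 9.22 in mock. For ccsA and atpI the recovered plants were still the lower ones by a small margin (-0.10 ± 0.15 and -0.23 ± 0.34), and accD overlapped.

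ycf3 and rps16 ended on the other side of mock, without a call. ycf3 read 8.52 and 8.10 in recovered plants, against 7.79 and 7.97 in mock, a difference of 0.42 ± 0.24 (adjusted p = 0.618). rps16 read 7.48 and 7.26 in recovered plants, against 7.73 and 7.53 in mock, a difference of -0.26 ± 0.22 (adjusted p = 0.769). The replicates of neither gene overlapped between the groups. rbcL read 10.12 and 9.58 in recovered plants, against 9.99 and 10.17 in mock, an overlap with a difference of -0.23 ± 0.21 (adjusted p = 0.817). For the rest of the called genes the recovered plants read 11.30 and 11.20 for atpA, against 11.72 and 11.20 in mock, and 14.58 and 14.56 for atpE, against 14.66 and 14.64 in mock. rpl20 read 6.64 and 6.11, against 6.36 and 6.26 in mock. rps4 read 13.81 and 13.60, against 13.76 and 13.72 in mock, and rpl36 read 12.33 and 12.50, against 12.31 and 12.42 in mock. In atpE alone of these 5 both recovery arrays lay below the mock arrays, by -0.08 ± 0.05 on average (adjusted p = 0.683).

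Whether the effect of heat itself differed between the time points was tested as an interaction, the effect after recovery minus that without it. It was called in 4 of 33 genes (12.1%), against 32.3% of all probe sets (15.4% higher and 16.9% lower), which is below the background. With the scaling on the controls it was called in 5 (15.2%, against 35.3% of all probe sets): cemA and ycf3 higher, atpH, matK and rps16 lower. On the deposited scale 9 of the 33 genes had an unadjusted p under 0.05, against 40.4% of all probe sets. The effect was higher after recovery for cemA (1.55 ± 0.28, adjusted p = 0.0166), ycf3 (1.41 ± 0.33, adjusted p = 0.0365) and ccsA (0.85 ± 0.21, adjusted p = 0.0411). It was lower for rps16 (-1.18 ± 0.31, adjusted p = 0.0489). Each of these interactions lost its call when some single array was left out. That held for 7 of the 8 arrays in rps16, for 6 each in ycf3 and ccsA and for 5 in cemA, with highest adjusted p between 0.0636 (cemA) and 0.144 (rps16). Without any 1 array the median interaction of the 33 genes ran from 0.22 to 0.50. When limma was run on the brighter probe sets alone, 11 of 31 genes were called (35.5%, against 59.6% of those probe sets).

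The mock plants of the 2 time points, compared as later minus earlier, gave no call among the 33 genes, against 0.0791% of all probe sets (0.0440% higher and 0.0352% lower), and none had an unadjusted p under 0.05, against 8.63%. The difference was above 0 in 29 of 33 genes and below 0 in 4 (12.1%, against 41.8% of all probe sets), with a median of 0.16, against 0.00. This shift rests on single arrays: without mock no-recovery replicate 2 the median was -0.00 with 17 of 33 genes below 0, and without replicate 1 of that group it was 0.31 with 0 below. rps16 had the largest, 0.52 ± 0.22 (7.73 and 7.53 in later mock plants, against 7.39 and 6.82 in earlier ones; adjusted p = 0.647), followed by rpoC2 with 0.40 ± 0.23 (adjusted p = 0.824). The later mock arrays lay above the earlier ones without overlap in 6 genes (18.2%, against 15.2% of all probe sets) and below them in 0 (against 16.0%).

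The plastid genes also moved together between replicates. Replicate 1 read higher than replicate 2 for 26 of the 33 genes in heat and 31 in mock without recovery, and for 31 in heat and 21 in mock after recovery. Among the 13849 brighter probe sets replicate 1 was the higher in 45.1% to 53.0%. The median difference between replicates over the 33 genes was 0.19, 0.29, 0.24 and 0.10 on the log2 scale in these 4 groups, which is of the order of the smaller heat effects. The 36 plastid electron transport genes shared the shift in the first 3 groups, with replicate 1 higher in 27, 28 and 28 genes, and in 17 in mock plants after recovery. The 33 genes are therefore not independent readings, and any shift common to them on 1 array enters each of their tests. The cause of the differences between replicates was not tested.

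**Figure D3:**
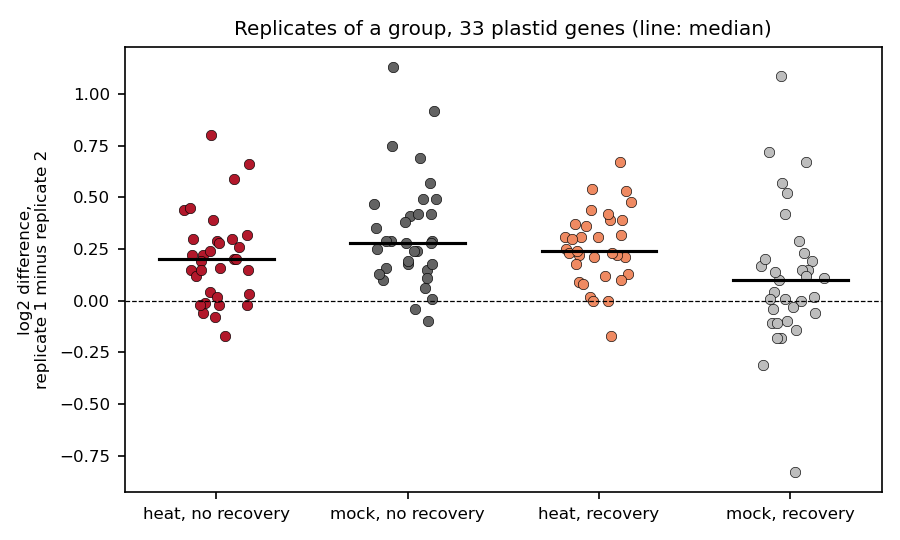
Difference between replicate 1 and replicate 2 of the same group on the log2 scale for each of the 33 plastid genes (points) and the median (line), by group. In 3 of the groups most points lie above 0, 26, 31 and 31 of 33, and in mock plants after recovery 21.

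Along the plastid genome, genes of the accD operon, a set drawn together after the values were seen, had differences of one sign. accD, ycf4 and cemA, at -1.10, -1.29 and -1.49, lie with psaI (-0.83 ± 0.26, adjusted p = 0.0669) and petA (-1.20 ± 0.13, adjusted p = 0.0028), and all 5 genes of this operon were below 0, with 3 called lower. Other neighbouring genes also shared this sign: 6 of 6 ndh genes from ndhH to ndhD, 3 of 3 genes from psaA to rps14, and both atpB and atpE. In each of the first 2 sets 2 genes were called lower. psaC, which lies between ndhD and ndhE, stood at -0.43 without a call. Below 0 lay 72.7% of the 33 genes and 83.3% of the 36 electron transport genes, against 40.5% of all probe sets. Called lower were 33.3% and 30.6% of these 2 sets, against 19.8% of all probe sets. The operon that runs from rps2 to atpA was mixed: rps2 had -0.29, atpI -1.49, atpH 0.94, atpF -0.41 and atpA -1.09, with 2 of 5 called lower. Of the 7 measured genes of the long ribosomal operon from rps19 to rpoA, 1 was called lower, rpl36, and the differences ran from -0.82 (rpl16) to 0.17 (rpl22). rps16 and matK, which are neighbours, both stood above 0. Over the 68 pairs of neighbouring genes among all 69 plastid genes measured, the log2 differences had a Spearman correlation of 0.27. Over the 32 pairs of consecutive genes among the 33 alone it was 0.03. All these values share the same arrays, and neighbours can share a transcript. Gene length, introns included, had a Spearman correlation with the log2 difference of -0.10 without recovery and -0.35 after it, over the 32 genes off the floor.

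**Figure D4:**
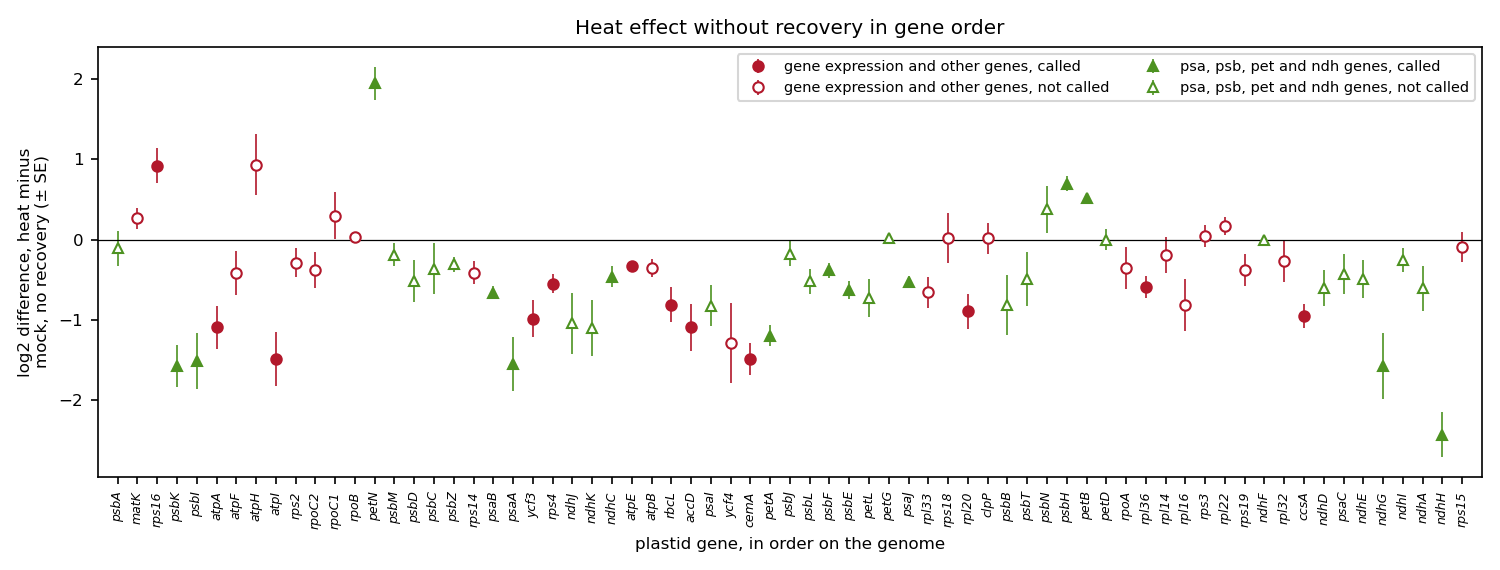
Log2 difference, heat minus mock without recovery, with its standard error for the 69 plastid genes with a probe set, in their order on the genome (TAIR10.1 assembly). Circles are the 33 genes described here, triangles the 36 psa, psb, pet and ndh genes, and filled symbols were called. The neighbours accD, psaI, ycf4, cemA and petA lie between -0.83 and -1.49, and atpH stands above 0 between atpF and atpI, which lie below it.

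Plastid genes with a textbook promoter for the phage-type polymerase gave mixed values: of accD, rpoB, rpoC1 and rpoC2, accD fell, rpoC1 and rpoC2 were not called and rpoB could not be measured. rbcL, a textbook gene of the bacterial-type polymerase, fell as accD did. The 36 electron transport genes had 11 falls and 3 rises without recovery and a median of -0.51, which turned to -0.01 with the scaling on the controls, beside 11 falls, 1 rise and -0.38 in the 33 genes. The called share of the 36 genes was 38.9%, near the 41.0% of all probe sets. No test of the difference between these sets was made.

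Nuclear partners of these plastid genes could be followed only in part, since few had a probe set with 1 gene. On a hand-written list of 37 nuclear loci for plastid ribosomal proteins 9 were measured, of which 8 fell and 0 rose (against 19.8% lower and 21.2% higher over all probe sets), with a median log2 difference of -0.94. With the scaling on the controls 2 were called lower and 1 higher (against 12.3% and 32.3% of all probe sets), with a median of -0.44. The 3 with the smallest p were AT2G43030 (-1.32 ± 0.03, adjusted p = 5.55e-05), AT3G13120 (-1.13 ± 0.06, adjusted p = 3.56e-04) and AT5G65220 (-0.98 ± 0.06, adjusted p = 4.57e-04), while AT3G54210 gave 0.14 ± 0.08 (adjusted p = 0.311). Their median SE was 0.07, against 0.21 for the 33 plastid genes. Of the 15 plastid genes named for ribosomal proteins, 3 fell (20.0%, against 19.8% of all probe sets) and 1 rose (6.67%, against 21.2%). Their median of -0.29 turned to 0.20 with the scaling on the controls.

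Other nuclear partners fell as well. ATPC1, the gamma subunit of the plastid ATP synthase, read 12.11 and 12.21 in heat, against 13.34 and 13.23 in mock, and fell by 1.13 (SE 0.07, adjusted p = 5.48e-04). ATPC2, a second gamma subunit gene, gave -0.50 ± 0.22 (adjusted p = 0.162). RCA, the activase of Rubisco, fell by 0.56 (SE 0.06, adjusted p = 0.0030). Of 2 nuclear Clp protease loci measured, AT1G09130 fell by 0.37 (SE 0.10, adjusted p = 0.0443) and CLPP4 gave -0.46 ± 0.13 (adjusted p = 0.0521). AT5G15700, the 1 measured locus of 3 on the list of phage-type organelle polymerases, read 4.60 and 4.85 in heat, against 2.53 and 2.54 in mock, and was called higher (adjusted p = 2.26e-04). Its other 6 arrays lay between 2.44 and 2.54, near the floor, so the size of this rise could not be measured. After recovery none of these loci differed at the threshold. No sigma factor, polymerase-associated protein, nuclear acetyl-CoA carboxylase subunit or plastid RNA processing factor on the lists was measured by a probe set with 1 gene.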

How the data were processed

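RNA of 8 seedling samples was hybridized to 1 Affymetrix array each. The deposited values are scores per probe set that GCRMA made, per the submitters' processing notes (version not given in the sources used here). They held no decimal point: none of 182480 values had one. Values that began with 1 were given a point behind their first 2 digits and all others behind the first, which gave 2.18 to 15.23, read as log2; that reading rests on the restored values. Genes came from the platform annotation, names and order from RefSeq (TAIR10.1). Of 22810 probe sets, 64 controls were left out of the tests; 13513 of the rest were listed for 1 gene, 503 for several and 8730 for none.

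One limma model (3.58.1, in R 4.3.3) with the 4 group means was fitted to all 8 arrays, leaving 4 residual degrees of freedom, with Benjamini-Hochberg adjustment over 22746 probe sets and a threshold of 0.05. Tables and plots used Python 3.11.15, pandas 2.3.3 and matplotlib 3.10.9. The replicates are labelled biological. The number of arrays limits the precision. The code was tested on simulated data. A log2 of 2.3 was taken as the floor.

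The members and lists were chosen with earlier results of these data known. The split of the smaller roles, the operons that include electron transport genes, and the choice of ycf3, atpH and rpoC2 after recovery and of rps16 and rpoC2 between mock groups were made after these values were seen, as was the set of 13849 brighter probe sets used to compare replicates. Values of every array are given for genes called in a comparison and for rbcL, clpP, accD and matK, with up to 3 loci of smallest p from each nuclear list. Alternatives were a filter at log2 4 on 2 arrays, a floor at 4, only the 4 arrays compared, a replicate block, trended and robust variances, centring on the nuclear median, leaving out each array and, added after seeing the data, a crossed block and scaling on the hybridization controls. Averaging the probe sets of a gene changed nothing, since each had 1.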

Additional observations from a re-analysis of the deposited data

Results flagged for a closer look

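In 4 of the 33 plastid genes (12.1%, below the 32.3% of all probe sets) the effect of heat differed between the time points by the interaction test of limma, as the effect after recovery minus that without recovery on the log2 scale. This difference was 1.55 ± 0.28 (SE) for cemA, 1.41 ± 0.33 for ycf3, 0.85 ± 0.21 for ccsA and -1.18 ± 0.31 for rps16, and 2 arrays per group carry each. With the arrays scaled on the hybridization controls, those of cemA, ycf3 and rps16 were called and that of ccsA was not. In ycf3 both recovered plants lay above both mock plants after the fall without recovery, and in rps16 both lay below after the rise.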

How the results depend on the processing

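The falls of accD, atpI and cemA and the rise of rps16 were called on both the deposited scale and that of the hybridization controls, and of these cemA alone was also called without any 1 array and with only the 4 arrays compared. With the scaling on the controls, rpoA (0.14), rpoC2 (0.12), rpl14 (0.30), rpl32 (0.23), rps2 (0.20), rps14 (0.08), rps15 (0.40), rps19 (0.12), atpB (0.14), atpE (0.17) and atpF (0.08) changed sign without recovery, because every difference moved by 0.49. That shift came from the array medians of the controls, and a smaller one would leave some of these signs unchanged. Of these 11 genes only atpE had been called. Among genes without a call, signs also changed for rpl14 without mock no-recovery replicate 1, rps3 without mock no-recovery replicate 2, rps15 without heat no-recovery replicate 2, rps18 and clpP without heat no-recovery replicate 1 (-0.10 and -0.13) or mock no-recovery replicate 2, and atpH after recovery without mock recovery replicate 2. Without 1 array rpl14 ranged over -0.39 to 0.02, rps3 over -0.05 to 0.13, rps15 over -0.29 to 0.10, rps18 over -0.33 to 0.37, clpP over -0.22 to 0.25 and atpH after recovery over -0.11 to 0.98. Centred on the nuclear median clpP stood at -0.00, and with values under log2 4 set to 4 rps14 stood at 0.00, since all its values lie under 4. The cause was not tested.

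The plastid genes called without recovery numbered 3 with only the 4 arrays compared (atpH higher, cemA and rps14 lower), against 12 in all. Those 3 were 9.09% of the genes, against 31.1% of all probe sets. The interaction calls numbered 11 with the filter on low values (35.5%, against 59.6% of the probe sets tested) and 7 with the replicate block (21.2%, against 28.8%). Centred on the nuclear median they numbered 8 (24.2%, against 34.9%), where the main fit had 4. Leaving out any 1 array also changed the numbers called without recovery and in the interaction. After recovery, and between the mock groups, the number of plastid genes called was 0 under every setting run. Over all probe sets, the 54 calls after recovery became 582 with the filter, 18 with the floor, 1 with only the 4 arrays, 18 with the replicate block, 5 with the crossed block, 194 centred on the nuclear median, 828 with the scaling on the controls and 15 to 431 without 1 array. The 18 calls between mock groups became 8 with the floor, 0 with only the 4 arrays, 9 with the replicate block, 296 with the scaling on the controls and 4 to 361 without 1 array. Over the 13849 brighter probe sets same-numbered replicates did not deviate together (correlations from -0.15 to 0.19), and the labels do not pair them, but among the plastid genes replicate 1 read higher in most genes of every group. Under the replicate block 11 plastid genes were called without recovery (33.3%, against 38.3% of all probe sets), 9 of them shared with the 12. accD (adjusted p = 0.0635), rbcL (0.062) and rpl36 (0.0572) lost their calls, and rpl16 (0.0387) and rpl33 (0.0135) gained one. With 2 arrays per group the 95% confidence interval had a median half-width of 0.57 on the log2 scale, and rpoB gave no signal above the floor.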
